A study of Homo sapiens with 44 samples.

Results

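The genes described here make, use and recycle S-adenosylmethionine (SAM), the methyl donor of nearly all cellular methylation, or control the enzyme that makes it. They were chosen by symbol, as the rows of the deposited count tables named MAT2A, MAT2B, METTL16, AHCY, AHCYL1, MTR and MTAP. These are 7 of the 19923 genes in each table. An eighth gene on the list is not analysed here. All 7 passed the filter on low counts in every comparison.

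In the methionine cycle, MAT2A joins methionine to ATP to give SAM, and MAT2B is the regulatory subunit of that enzyme. Methyltransferases turn SAM into S-adenosylhomocysteine, which AHCY hydrolyses to homocysteine. MTR, the methionine synthase, methylates homocysteine back to methionine, and MTAP starts the salvage of methionine from the by-product of polyamine synthesis. AHCYL1 resembles AHCY in sequence and is known as an inositol trisphosphate receptor binding protein and an inhibitory partner of AHCY. METTL16 is an RNA methyltransferase that writes N6-methyladenosine (m6A) on hairpins in the 3′ untranslated region (UTR) of MAT2A mRNA. When SAM is scarce, METTL16 stays longer on these hairpins and promotes splicing of a retained MAT2A intron, and methylated hairpins are associated with decay of the mRNA. Most other m6A in mRNA is written by METTL3, the enzyme that the small molecule STM2457 inhibits, so MAT2A is a transcript methylated by an enzyme other than the drug's target.

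The study sequenced polyadenylated RNA before (input) and after immunoprecipitation with an m6A antibody (RIP) from neuroblastoma cells treated with STM2457 or with DMSO, the solvent control. Kelly and NGP are established human neuroblastoma lines that carry an amplified MYCN gene and are labelled wild type. Kelly cells received 8 µM STM2457 or DMSO for 1 day or 6 days, and NGP cells for 6 days, with 3 input and 3 RIP libraries per treatment. In the xenograft experiment, subcutaneous tumours of Kelly cells in nude mice were collected from animals given 50 mg/kg STM2457, or the control that the libraries label DMSO, once a day for 14 days, with 2 input and 2 RIP libraries per treatment. This makes 44 libraries in 16 groups. The sources used here do not say which libraries came from separate cultures or animals, so p-values measure the spread between these libraries, which may be technical.

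Assigned fragments ran from 2.14 M to 36.5 M per library (M, 1000000 fragments), lowest in the xenograft inputs (2.145 M to 7.272 M) and highest among inputs in Kelly at 1 day (24.065 M to 26.56 M). The spread between replicate inputs, as edgeR's common coefficient of variation, was 0.0725 for day-1 Kelly cells, 0.0913 for day-6 Kelly cells, 0.24 for NGP cells and 0.448 for tumours, so the Kelly cultures resolve the smallest changes. All 10 adrenergic neuroblastoma markers reached a level of at least 1 CPM (counts per M assigned fragments) in every input of the Kelly cultures and the tumours, and in NGP 9 did so in every DMSO input and 10 in every STM2457 input. Of 20 stroma and blood markers, 3 to 5 did so per group. The counts are over human genes, so these markers do not measure mouse stroma and blood in the tumours. In bulk RNA, fewer cells of a kind and less RNA per cell cannot be told apart. No source used here says whether libraries of different experiments were made and sequenced side by side, so a difference between experiments and one between their library sets cannot be told apart.

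The MAT2A transcript carries the sequence feature that sets it apart from the other members. METTL16 is known to recognise the 9-base motif TACAGAGAA (written as DNA) or the variant TACAGAAAA in the loop of a hairpin. The GENCODE 44 MANE Select transcript of MAT2A holds the first motif 5 times and the variant 1 time, all in its 3′ UTR, read on the transcript strand only. The 6 sites are shown with flanks because the flanks hold the hairpin arms. Each is 30 bases, 5′ to 3′ on the plus strand of GRCh38, with the motif in capitals.
Site 1, chr2:85543802-85543831: tggcgtaggcTACAGAGAAgccttcaagct
Site 2, chr2:85544589-85544618: tgtgatgtcaTACAGAGAAgtcacagggca
Site 3, chr2:85544774-85544803: ctggtgtagcTACAGAGAAaccagcttcct
Site 4, chr2:85544889-85544918: atggcgtaagTACAGAGAAgccatcacctc
Site 5, chr2:85545004-85545033: caaggtgtccTACAGAAAAaccttgggtta
Site 6, chr2:85545112-85545141: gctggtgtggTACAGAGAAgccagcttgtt

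Every site has an inverted repeat around the motif, of 5 bases in 5 sites and of 6 bases in site 5, for example ctggt and accag in site 3. In site 1 the repeat, aggct and agcct, includes the first and the last base of the motif. Of 19061 genes with a MANE Select transcript, 317 (1.66%) hold TACAGAGAA in the 3′ UTR and 2.87% hold TACAGAAAA. MAT2A was the only gene with at least 5 copies of TACAGAGAA there, and the next highest number was 2. The other members with a transcript hold neither motif in the 3′ UTR. A match is a run of letters, not evidence that a site was methylated in these cells.

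The count tables see these sites only in part. MAT2A lies at chr2:85539168-85545281 on the plus strand of GRCh38, and 562 of its 4485 annotated exon bases (12.5%), chr2:85544720-85545281, are also exon sequence of GGCX on the other strand. The counting assigned no fragment that overlaps both genes, and this stretch makes up 37.2% of the MAT2A 3′ UTR and holds 4 of the 6 sites. Counts per gene add up all exons, so neither a retained intron nor m6A at a single site can be read from them.

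The other members lie on 5 further chromosomes of GRCh38. MAT2B spans chr5:163503114-163519354 (plus strand), METTL16 chr17:2405562-2511891 (minus), AHCY chr20:34280268-34311802 (minus) and AHCYL1 chr1:109984765-110023742 (plus). MTR spans chr1:236795292-236921278 (plus) and MTAP chr9:21802636-21937651 (plus), of whose exon bases 3.17% are shared with AL359922.1. AHCY has 6 named pseudogenes, MTAP 2 and MAT2A 1, so fragments that match a copy may be missing from their counts. All values below are exon counts per gene.

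**Figure D1:**
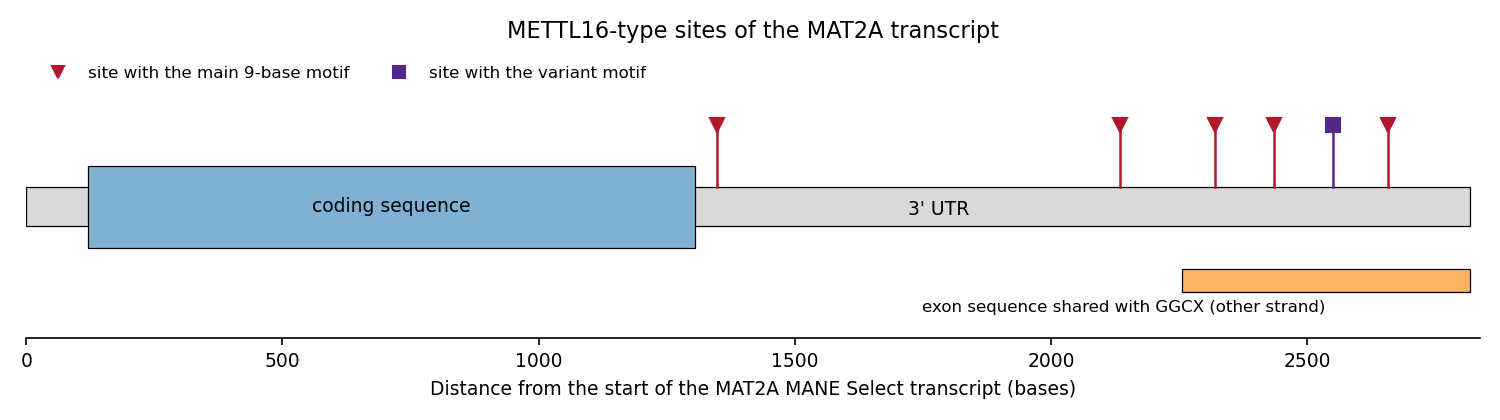
Map of the MAT2A MANE Select transcript, with the distance from its start in bases on the horizontal axis, the coding sequence as a wide box and the 6 motif sites as markers. All 6 sites lie in the 3′ UTR, and the orange bar, the 562 bases shared with GGCX, covers 4 of them.

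AHCY, MAT2A and AHCYL1 had the highest levels among the members. Levels are compared between genes as fragments per kilobase of annotated exon per M assigned fragments (FPKM, mean ± SD over DMSO inputs). The length takes in all annotated exons, 5135 bases for MAT2B and 14527 for MTAP, against 2064 and 6032 in their MANE Select transcripts. For MAT2A it includes the 562 bases shared with GGCX, whose fragments were not assigned, which lowers its FPKM. The order of the genes may differ with another length, which was not computed here. In Kelly at 1 day (n = 3), AHCY stood at 150 ± 3.11, MAT2A at 57.7 ± 1.37 and AHCYL1 at 38.2 ± 1.41. METTL16 at 8.40 ± 0.62 and MTR at 7.95 ± 0.076 did not differ beyond their spread, and MAT2B at 5.88 ± 0.029 and MTAP at 2.51 ± 0.30 were lowest by this length. The order of the top 3 was the same in NGP (n = 3), where AHCY stood at 129 ± 20.4, MAT2A at 50.0 ± 7.65 and AHCYL1 at 29.3 ± 1.18. By this measure, which lowers MAT2A, MAT2A and AHCYL1 did not differ beyond their spread in Kelly at 6 days (26.5 ± 0.29 and 26.7 ± 0.25, n = 3) or in the xenograft (16.2 ± 1.86 and 16.0 ± 1.92, n = 2).

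Lower in the order, MAT2B in NGP stood at 6.68 ± 1.09, above METTL16 at 4.03 ± 0.68, MTR at 2.99 ± 0.79 and MTAP at 1.88 ± 0.45, of which neighbouring values overlap within 1 SD except MAT2B over METTL16. In Kelly at 6 days METTL16 (2.95 ± 0.23) and MAT2B (2.76 ± 0.19) overlapped, with MTR at 1.22 ± 0.22 and MTAP at 0.694 ± 0.17 below them. In the xenograft METTL16 stood at 5.79 ± 0.68, MTR at 2.68 ± 0.23, MAT2B at 2.36 ± 0.50 and MTAP at 0.907 ± 0.45. MTAP had the lowest mean FPKM in all 4 experiments, a rank that rests on the length used. All 7 members had lower mean CPM in the Kelly DMSO inputs of the 6-day set than in those of the 1-day set, from 98.2 ± 0.94 to 15.1 ± 2.65 CPM for MTR and from 192 ± 7.09 to 135 ± 1.24 CPM for AHCYL1. The 2 days were not tested against each other. The share of all genes with a lower CPM is not given here, so the fall is not read as particular to the members. CPM is a share of the library, and other genes took more of it at 6 days. The adrenergic markers summed to 25970 to 26654 CPM in these DMSO inputs, against 12614 to 13928 CPM at 1 day.

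**Figure D2:**
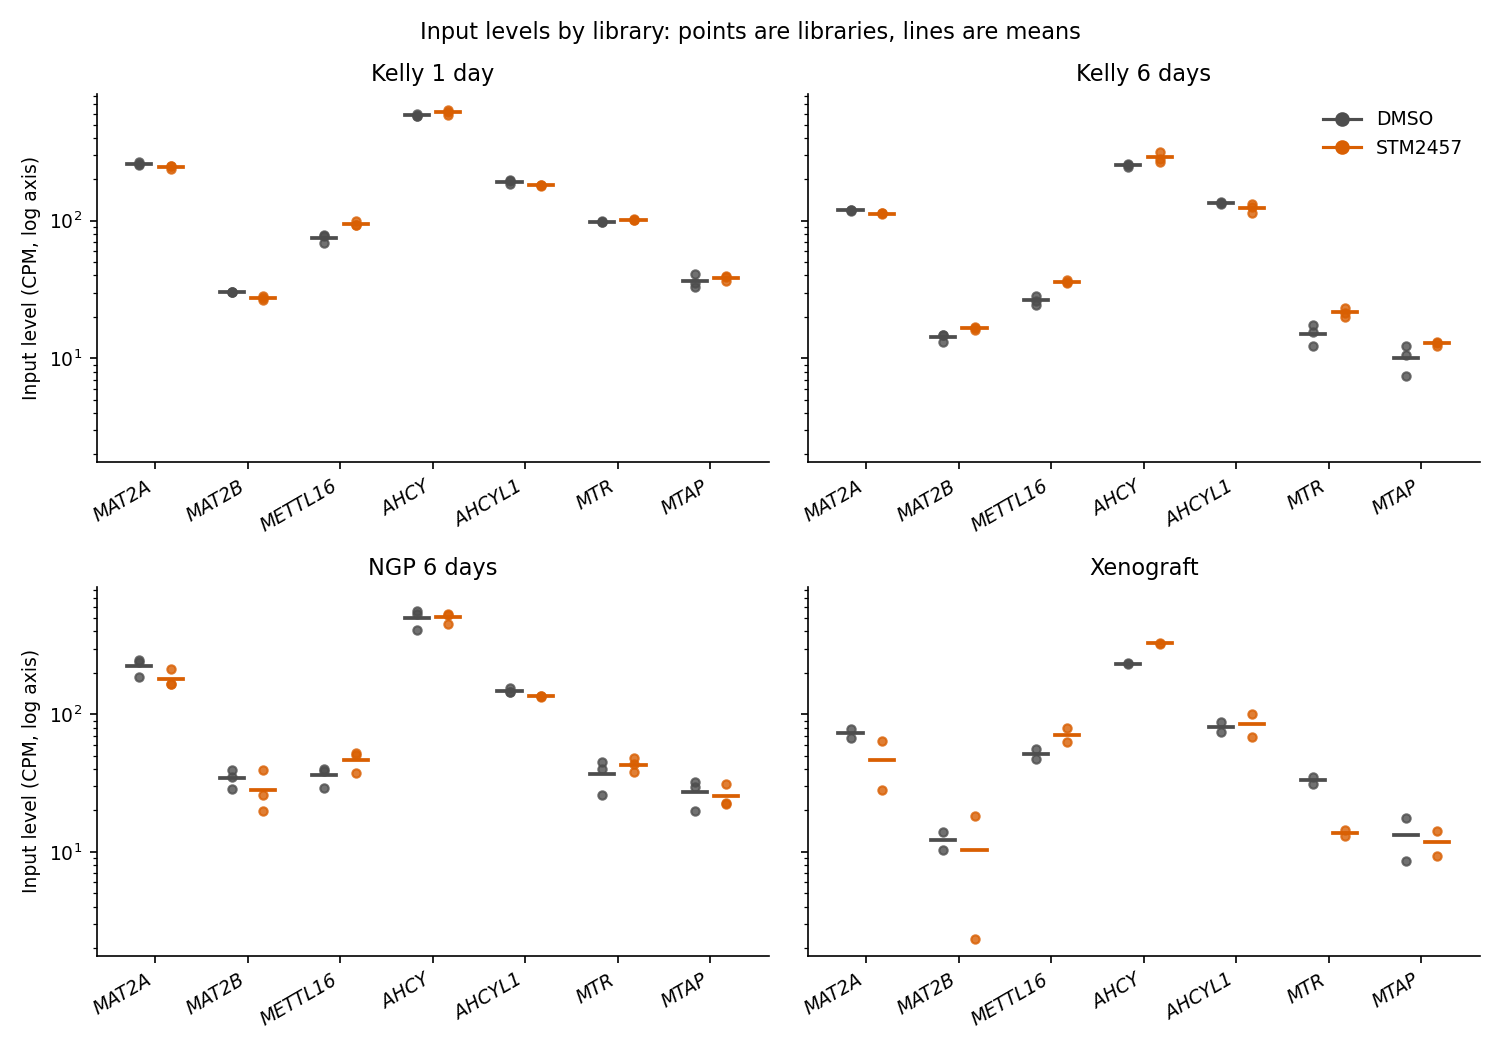
Input level of each member (CPM, log axis) in the 4 experiments; points are libraries, lines are means, grey is DMSO and orange is STM2457. METTL16 is higher and MAT2A lower in every treated library than in every DMSO library of Kelly at 1 day, Kelly at 6 days and the xenograft. The share of all genes that separate in this way is not given here.

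In the Kelly cultures METTL16 mRNA was higher with STM2457, and MAT2A mRNA moved little there. In NGP and the xenograft the log2 values were -0.37 and -0.53 for MAT2A and 0.31 and 0.59 for METTL16, none past the test. In Kelly at 1 day METTL16 was the only member to pass the test. Its DMSO inputs held 77.7, 68.7 and 78.8 CPM and its STM2457 inputs 93.4, 98.7 and 92.7 CPM. The groups do not overlap, and METTL16 rose by 0.31 ± 0.062 (log2 change ± standard error), or 1.24-fold, with an adjusted p of 0.00211 by the quasi-likelihood test of edgeR, adjusted over all 13246 tested genes by the Benjamini-Hochberg method. Among all genes, 9.41% rose and 8.06% fell, so 1 rise among 7 members is near the background. The share of all genes whose groups do not overlap is not given, here or for the comparisons below. A lack of overlap is therefore a description of the libraries and not read as particular to the members.

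At 6 days 4 members passed in Kelly cells, 2 in each direction, where 11.9% of all genes rose and 14.7% fell. The DMSO inputs of this set held 12.086 M to 12.78 M fragments, and the STM2457 inputs 28.675 M, 31.488 M and 5.765 M. Its RIP libraries held 10.527 M to 11.173 M in DMSO and 16.32 M to 25.547 M in STM2457. The part of depth in these changes was not tested. METTL16 held 26.3, 28.5 and 24.4 CPM in DMSO and 35.3, 36.0 and 36.9 CPM in STM2457. It rose by 0.34 ± 0.095 (adjusted p = 0.0143, edgeR), and all 3 treated libraries lay above all 3 controls. MTR held 12.2, 17.4 and 15.6 CPM in DMSO and 21.4, 20.1 and 23.4 CPM in STM2457, again without overlap. MTR rose by 0.40 ± 0.135 (adjusted p = 0.0395, edgeR).

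MAT2A and AHCYL1 fell in the same cells. MAT2A held 120, 119 and 117 CPM in DMSO and 113, 111 and 113 CPM in STM2457, a fall by 0.19 ± 0.060 on the log2 scale (1.14-fold, adjusted p = 0.0311, edgeR). The call was lost in DESeq2 (-0.17, adjusted p = 0.0563), with no filter on low counts (-0.17, adjusted p = 0.0584) and in 4 of the fits that left out 1 library. The groups do not overlap, and the gap between them is small beside the level, with means of 119 and 113 CPM. Fitted changes use TMM factors. On plain CPM the members' falls in this set are smaller, that of MAT2A included, and their rises are larger. AHCYL1 held 136, 135 and 133 CPM in DMSO and 132, 126 and 114 CPM in STM2457, and fell by 0.22 ± 0.069 (adjusted p = 0.0281, edgeR). Treated replicate 3, the shallowest Kelly input at 5.765 M fragments, is the lowest AHCYL1 library.

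The calls at 6 days are close to the threshold. Between 0 and 3 of the 4 passed when 1 library was left out, and METTL16 was lost only without DMSO replicate 3 (0.29, adjusted p = 0.0758, edgeR). In 1 fit of all 22 inputs with a shared spread, none of the 4 passed and METTL16 at 1 day did not either (0.30, adjusted p = 0.765).

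At 1 day MAT2A held 265, 253 and 259 CPM in DMSO and 239, 248 and 249 CPM in STM2457. The treated libraries lay below the controls, with a log2 value of -0.10 ± 0.045 that did not pass (adjusted p = 0.135, edgeR). MAT2B differed by -0.16 ± 0.082 at 1 day and 0.12 ± 0.122 at 6 days, AHCY by 0.048 ± 0.043 and 0.084 ± 0.066, and MTAP by 0.043 ± 0.087 and 0.23 ± 0.167, none past the test. The change from 1 day to 6 days was itself tested as an interaction over the inputs of both sets. No member passed, where 3.67% of all genes passed upward and 4.73% downward. MTR came nearest, at 0.38 ± 0.127 (adjusted p = 0.0691, edgeR), and 2 members had an unadjusted p under 0.05. DESeq2 called 1 member, MTR (0.39, adjusted p = 0.0319), and so did edgeR with no filter on low counts (0.45, adjusted p = 0.0136) and in 4 of the fits that left out 1 library of Kelly at 6 days.

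In NGP none of the 7 members passed, where 2.07% of all genes rose and 2.16% fell. MAT2A held 249, 185 and 239 CPM in DMSO and 166, 166 and 213 CPM in STM2457. The groups overlap through 1 library of each, and the log2 value was -0.37 ± 0.156 with an unadjusted p of 0.0245 and an adjusted p of 0.197 (edgeR). METTL16 held 40.2, 29.0 and 38.8 CPM in DMSO and 50.2, 37.5 and 52.3 CPM in STM2457, a log2 value of 0.31 ± 0.204 that did not pass. It is the same size as in the Kelly cultures, with a standard error 0.204 against 0.062 at 1 day. AHCYL1 held 155, 145 and 144 CPM in DMSO and 133, 136 and 135 CPM in STM2457, without overlap, and did not pass either (-0.21 ± 0.145). Tested directly, the response of NGP minus that of Kelly at 6 days gave 0 members called, 0 with an unadjusted p under 0.05, and 0 by DESeq2, where 0.796% of all genes passed upward and 0.565% downward.

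In the xenograft 0 of 7 members and 0 of all 11329 genes passed edgeR's test (0% in each direction), with 968 genes and 2 members at an unadjusted p under 0.05. AHCY held 235 and 230 CPM in DMSO tumours and 325 and 331 CPM in treated ones. The log2 value was 0.62 ± 0.154, with an adjusted p of 0.46 in edgeR and of 0.0159 in DESeq2, which called 120 genes. MTR held 35.1 and 31.1 CPM in DMSO and 14.4 and 13.1 CPM in treated tumours, a log2 value of -1.14 ± 0.489 (adjusted p = 0.571, edgeR). The treated libraries lie below the controls here and above them in both Kelly cultures, and this difference was not tested. At 1 day the Kelly value was only 0.028 ± 0.052 (adjusted p = 0.766, edgeR), smaller than its standard error. The share of all genes whose groups separate in this way is not given here. METTL16 held 56.0 and 47.4 CPM in DMSO and 79.6 and 62.5 CPM in treated tumours (0.59 ± 0.303), and MAT2A held 66.7 and 78.5 CPM in DMSO and 28.2 and 64.3 CPM in treated tumours (-0.53 ± 0.412). The MAT2A value was -1.25 without treated replicate 2 (adjusted p = 0.0146, edgeR) and ran up to -0.042 in the other fits that left out 1 library. The values of METTL16 and MAT2A lie on the side seen in Kelly cells, without overlap and without passing the test. With all 22 inputs in 1 fit, which called 982 of 14224 genes upward and 1569 downward in the xenograft, 3 members passed: AHCY (0.60, adjusted p = 0.00161, edgeR), MTR (-1.15, adjusted p = 0.00264) and METTL16 (0.58, adjusted p = 0.0359). That fit shares its spread between experiments, while the common coefficient of variation was 0.448 in tumours and 0.0725 in day-1 Kelly cells. Its p-values therefore do not measure the spread between tumour libraries.

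By CPM, METTL16 mRNA was enriched and AHCY and AHCYL1 mRNA depleted in every RIP library, although the fitted DMSO ratios of AHCY (Kelly at 6 days and xenograft) and AHCYL1 (Kelly at 6 days) turned positive with a mitochondrial reference. A ratio was taken for each RIP library as log2 of its CPM + 1 over the mean input of its group. METTL16 lay above input in 22 of 22 RIP libraries, from 0.20 to 2.67 with a median of 1.31. AHCY lay below input in 22 of 22, from -6.45 to -0.90, and AHCYL1 in 22 of 22, from -5.53 to -0.69. MAT2A lay above input in 7 of 22, MAT2B in 6, MTAP in 10 and MTR in 14.

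**Figure D3:**
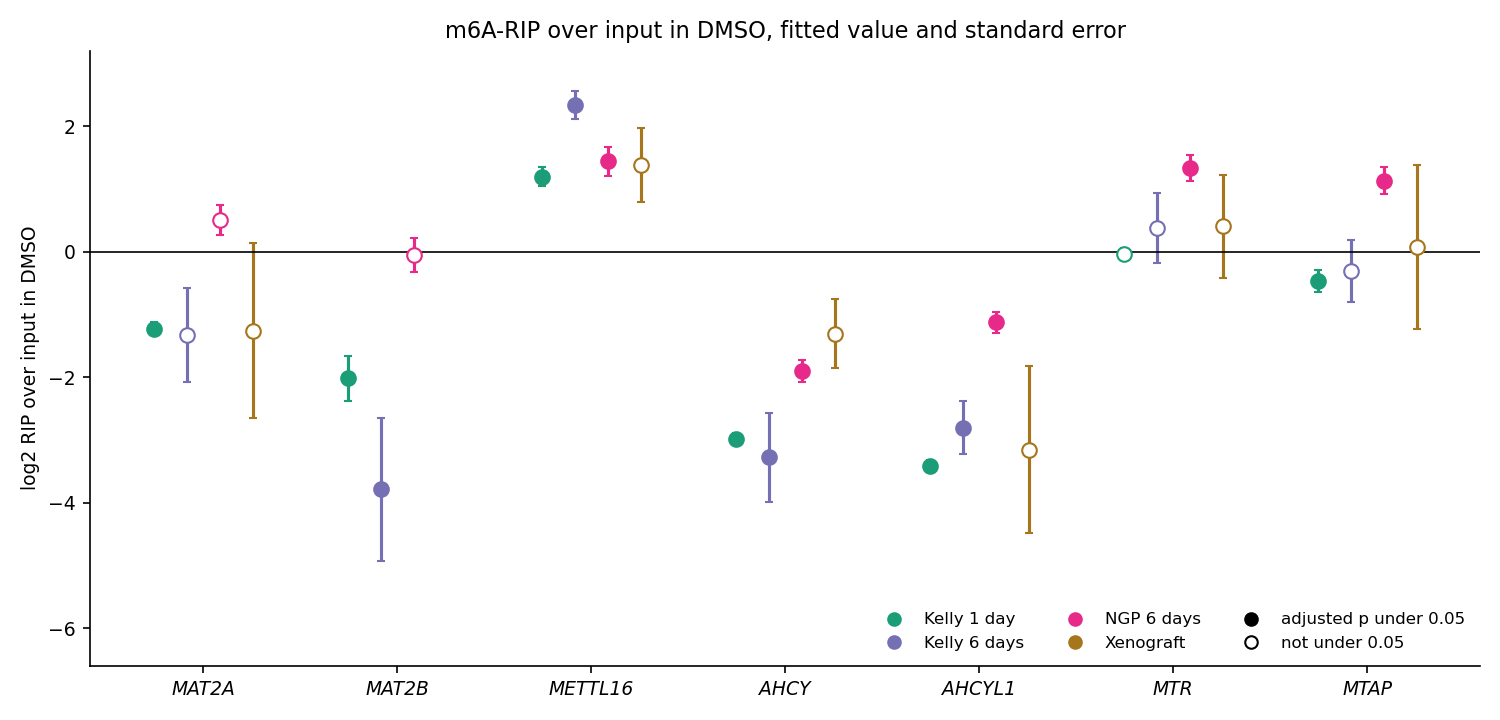
RIP over input in DMSO for each member and experiment, as the fitted log2 value with its standard error (MAT2B in the xenograft has no value). Filled symbols passed the test and open ones did not; METTL16 is above 0 and AHCY and AHCYL1 are below 0 in all 4 experiments under TMM, and with the mitochondrial reference AHCY turns in Kelly at 6 days and the xenograft and AHCYL1 in Kelly at 6 days.

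These ratios are relative to the typical gene, because the TMM scaling of edgeR centres each library. Scaling on the 13 mitochondrially encoded mRNAs instead moved the median ratio of all genes to 1.57 for day-1 Kelly cells, 4.77 for day-6 Kelly cells, 0.86 for NGP cells and 2.02 for tumours. METTL16 kept its sign and stood above that median by 1.27, 2.70, 1.44 and 1.88. AHCY stood at -2.92, -3.32, -1.97 and -0.98 relative to it, although its ratio turned positive in Kelly at 6 days (1.45) and the xenograft (1.04) under that scaling. Directions below are under TMM, and members whose sign turned are named. Per the count headers, RIP and input libraries of Kelly at 1 day lay in different processing folders, unlike those of the other experiments. For RIP against input at 1 day, library type and processing folder therefore cannot be told apart.

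METTL16 in DMSO held 191, 147 and 156 CPM in the RIP libraries of Kelly at 1 day against 77.7, 68.7 and 78.8 CPM in the inputs. The fitted ratio was 1.19 ± 0.150 (adjusted p = 1.04e-05, edgeR). It was the only member enriched there, where 33.3% of all genes were enriched and 34.3% depleted. At 6 days the RIP libraries held 125, 113 and 174 CPM against 26.3, 28.5 and 24.4 CPM in the inputs, a ratio of 2.34 ± 0.220 (adjusted p = 2.12e-06, edgeR). METTL16 was again the only member enriched, where 28.8% of all genes were enriched and 29.2% depleted.

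In NGP METTL16 RIP libraries held 148, 88.6 and 78.4 CPM against 40.2, 29.0 and 38.8 CPM (1.44 ± 0.230, adjusted p = 1.41e-05, edgeR). In the xenograft they held 113 and 149 CPM against 56.0 and 47.4 CPM, and the ratio of 1.38 ± 0.591 did not pass (adjusted p = 0.196). RIP and input do not overlap in any of the 4 experiments. The tests in the 3 cultures passed under every alternative tried, while in the xenograft 0 of 7 members passed (4 at an unadjusted p under 0.05, and 2 called by DESeq2), where edgeR called 1.61% of all genes enriched and 2.15% depleted.

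AHCY and AHCYL1 were depleted under TMM in the 3 cultures. AHCY in Kelly at 1 day held 70.1, 66.7 and 76.2 CPM in RIP against 598, 580 and 575 CPM in input, a ratio of -2.98 ± 0.084 (adjusted p = 6.1e-12, edgeR). AHCYL1 held 18.8, 16.2 and 16.6 CPM in RIP against 194, 185 and 199 CPM in input (-3.42 ± 0.094, adjusted p = 5.19e-12). No RIP library comes near an input here, and only 4.46% of all genes had a ratio below that of AHCYL1. At 6 days the ratios were -3.28 ± 0.706 for AHCY and -2.81 ± 0.421 for AHCYL1, and in NGP -1.90 ± 0.179 and -1.13 ± 0.171, all of which passed. The ratio of AHCYL1 turned positive in Kelly at 6 days with the mitochondrial reference (2.27), and in NGP it lost its call with that reference (-0.39, adjusted p = 0.17). In the xenograft the values were -1.31 ± 0.552 and -3.16 ± 1.33 and did not pass.

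MAT2A was below the typical gene in Kelly cells and not in NGP. In Kelly at 1 day its DMSO RIP libraries held 89.1, 112 and 117 CPM against 265, 253 and 259 CPM in input, a ratio of -1.23 ± 0.105 (adjusted p = 2.43e-07, edgeR) that turned to 0.40 with the mitochondrial reference while staying 1.17 below the median of all genes. In Kelly at 6 days the RIP libraries ranged 12.6, 44.6 and 88.5 CPM against 120, 119 and 117 CPM. All lie below the inputs, and the ratio of -1.33 ± 0.744 did not pass (adjusted p = 0.143; 4.09 with the mitochondrial reference), although it did in the fit without treated RIP replicate 1, which shares the estimate of spread (-1.35, adjusted p = 0.0283). In NGP the RIP libraries held 196, 427 and 382 CPM against 249, 185 and 239 CPM, so that 2 of 3 lie above every input. The ratio of 0.50 ± 0.234 did not pass (adjusted p = 0.0764, edgeR), while it passed with no filter on low counts (0.52, adjusted p = 0.0249), with the mitochondrial reference (1.16, adjusted p = 0.000859) and without DMSO RIP replicate 1 (0.79, adjusted p = 0.000466). In the xenograft the RIP libraries held 49 and 13 CPM against 66.7 and 78.5 CPM (-1.26 ± 1.39, 0.53 with the mitochondrial reference).

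MAT2B, the partner of MAT2A, was depleted in Kelly cells, with ratios of -2.02 ± 0.36 at 1 day (adjusted p = 0.000241, edgeR; -0.40 with the mitochondrial reference, adjusted p = 0.32) and -3.79 ± 1.14 at 6 days (adjusted p = 0.0126; 0.33 with the mitochondrial reference). At 6 days its DMSO RIP libraries held 14, 21 and 0 fragments. In NGP its ratio was -0.055 ± 0.265 and turned to 0.63 with the mitochondrial reference. In the xenograft both DMSO RIP libraries held 0 fragments against 60 and 75 in the inputs. By CPM, MAT2B was at least 44.3-fold lower in these RIP libraries, taking 3 fragments per library as the limit of a count of 0. That limit covers counting error only, and not the spread between RIP libraries or the choice of scaling. The treated xenograft RIP libraries held 0 and 214 fragments. The second, at 18.1 CPM, lay above the mean of the treated inputs (10.3 CPM).

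MTR and MTAP, the members with the longest exons, were enriched in NGP, with ratios of 1.33 ± 0.211 (adjusted p = 1.31e-05, edgeR) and 1.13 ± 0.216 (adjusted p = 0.00012). MTR held 97.0, 99.9 and 101 CPM in NGP RIP against 44.7, 26.0 and 40.2 CPM in input, without overlap. With METTL16 this made 3 members enriched and 2 depleted in NGP, where 29% of all genes were enriched and 26.5% depleted. In Kelly cells MTR gave -0.04 ± 0.093 at 1 day and 0.38 ± 0.555 at 6 days and did not pass, and with the mitochondrial reference the first turned to 1.59. MTAP gave -0.47 ± 0.171 at 1 day (adjusted p = 0.0272, edgeR), a call lost in 4 of the fits that left out 1 library and turned to 1.17 with the mitochondrial reference, and -0.31 ± 0.494 at 6 days (4.71 with that reference).

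Members with a longer longest exon tended to have a higher ratio, with exceptions. AHCYL1 had a low ratio for its longest exon, and METTL16 had a higher fitted ratio than MTAP and MTR in every experiment. MAT2B lay below AHCY in Kelly at 6 days. The choice of genes did not use this feature. In the MANE Select transcripts the longest exon of every member is its last one, and it measures 898 bases in AHCY, 1162 in MAT2B, 1612 in MAT2A, 2069 in AHCYL1, 4548 in METTL16, 5106 in MTAP and 6424 in MTR. Over all genes with both values, the DMSO ratio and the longest exon had a Spearman correlation of 0.307 for day-1 Kelly cells (13253 genes), 0.300 for day-6 Kelly cells (12963), 0.347 for NGP cells (12725) and 0.208 for tumours (12300). These are descriptions across genes that share libraries, with no test.

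Against genes of similar longest exon, the members still spread widely. All tested genes were split into 10 equal bins by longest exon. AHCYL1 lay in bin 6 of Kelly at 1 day, where exons run from 1778 to 2282 bases and the median ratio was 0.40, with the middle of the distribution from -1.18 to 1.5, and its own ratio was -3.42. METTL16 and MTAP shared bin 9, from 3722 to 5204 bases with a median of 0.77, at 1.19 and -0.47. AHCY lay below the lower quartile of its bin in the 3 cultures. The count of GGACT, a form of the motif METTL3 prefers, read on the transcript strand, was 12 in MTR, 4 in MTAP, 3 in METTL16 and AHCYL1, 2 in MAT2A, 1 in AHCY and 0 in MAT2B. Per kilobase, MTR had 1.14 and METTL16 0.523, against a median of 0.924 over all genes, so the most enriched member was below the median in this motif.

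**Figure D4:**
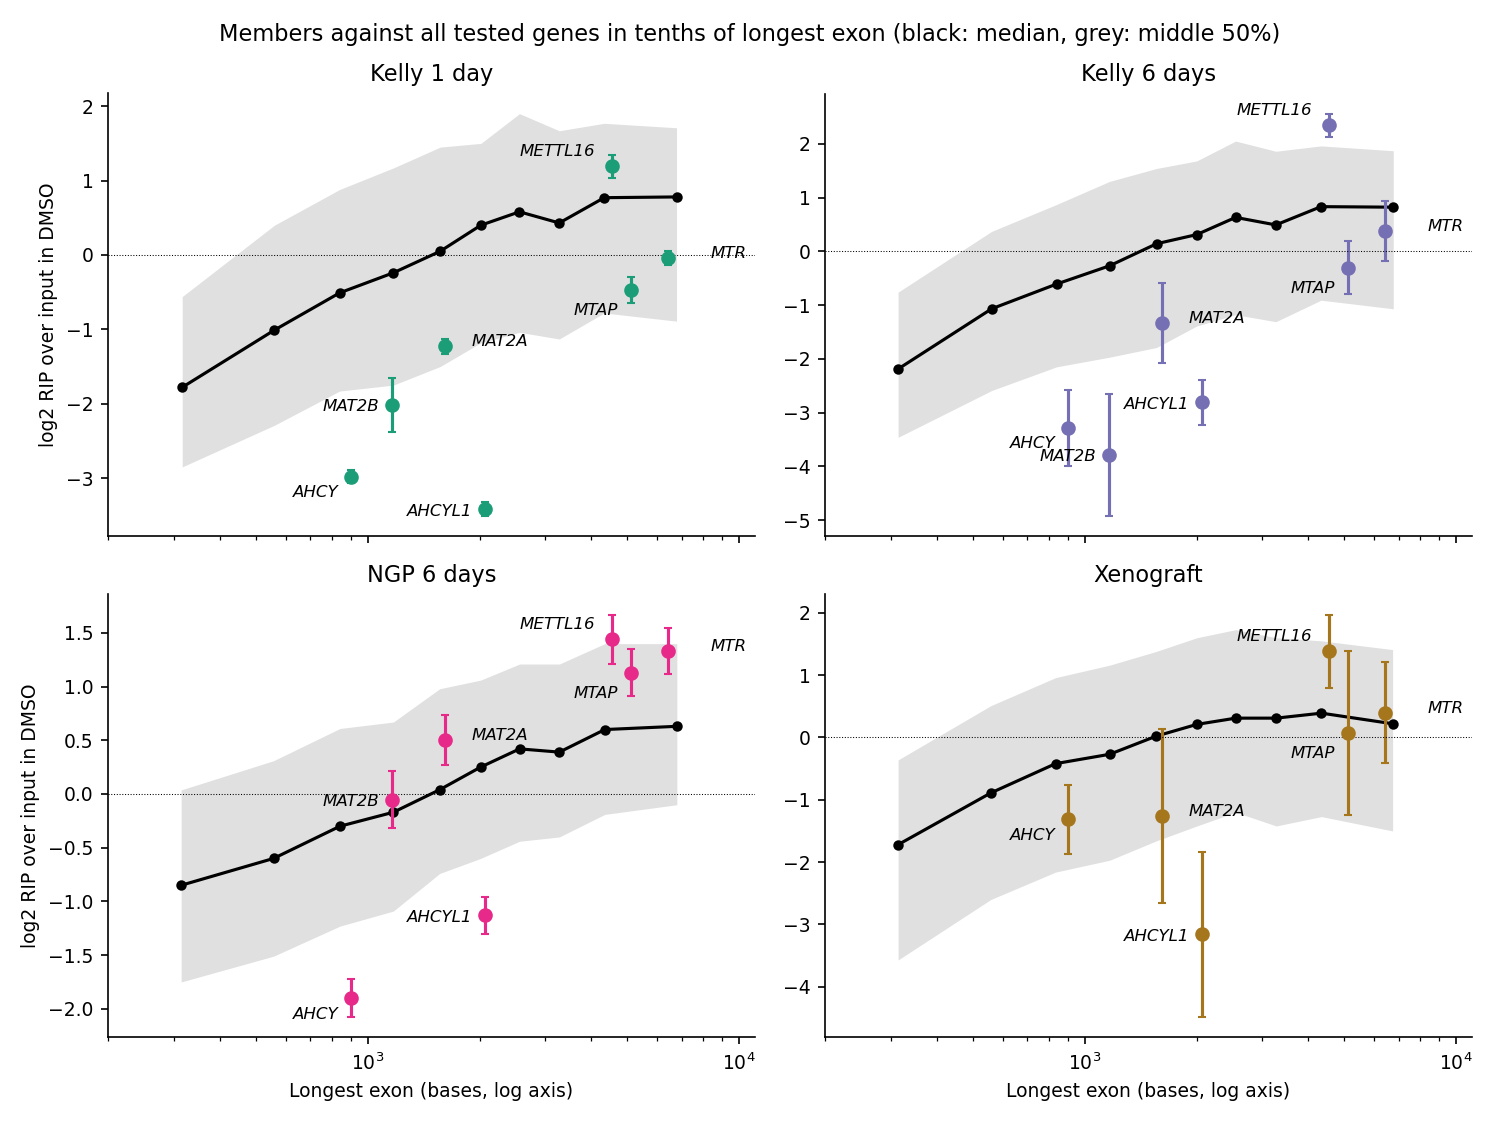
Fitted log2 RIP over input in DMSO (± standard error) against the longest exon in bases (log axis), with the 4 experiments in panels; the black line joins the medians of all tested genes in 10 bins of longest exon and the grey band holds the middle 50%. AHCYL1 lies below the band in all 4 panels, and METTL16 above the median in all 4.

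Treatment raised the RIP share of MAT2A and AHCYL1 relative to other genes in Kelly cells at 1 day, under TMM scaling; both values turned negative with the mitochondrial reference. MAT2A RIP libraries held 89.1, 112 and 117 CPM in DMSO and 189, 150 and 158 CPM in STM2457, while its inputs held 265, 253 and 259 CPM and 239, 248 and 249 CPM. The treated RIP libraries all lie above the controls. The ratio of RIP over input rose by 0.81 ± 0.147 (1.75-fold, adjusted p = 0.00233, edgeR). AHCYL1 RIP libraries held 18.8, 16.2 and 16.6 CPM in DMSO and 24.2, 25.7 and 26.2 CPM in STM2457, again without overlap, a rise by 0.74 ± 0.122 (adjusted p = 0.00129, edgeR). These were the 2 members called, where 9.53% of all genes rose and 7.62% fell.

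Both rises are relative. With the mitochondrial reference the median of all genes moved to -1.47, the value of MAT2A turned to -0.62 (adjusted p = 0.00253) and that of AHCYL1 to -0.71 (adjusted p = 0.00226), and 6 of 7 members passed, all downward, as did 8356 of all 13669 genes tested. Relative to the median of all genes MAT2A stood at 0.84 with TMM and 0.85 with the mitochondrial reference, and AHCYL1 at 0.76 and 0.75. METTL16 stood at -0.08 and -0.10, and MTR at 0.057 and 0.061. Which of the scalings gives the absolute m6A level was not tested, as the spike-in RNAs are not analysed here.

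The other members at 1 day did not pass under TMM. METTL16 RIP libraries held 191, 147 and 156 CPM in DMSO and 147, 226 and 170 CPM in STM2457, overlapping widely (-0.11 ± 0.209). MAT2B held 5.16, 8.10 and 8.28 CPM in DMSO and 11.1, 24.5 and 8.31 CPM in STM2457, which gave 1.26 ± 0.491 (adjusted p = 0.102 in edgeR and 0.0417 in DESeq2; -0.18 with the mitochondrial reference). MTAP held 26.5, 24.8 and 24.5 CPM in DMSO and 13.4, 18.9 and 18.4 CPM in STM2457, all treated libraries below the controls, at -0.56 ± 0.242 (adjusted p = 0.143).

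**Figure D5:**
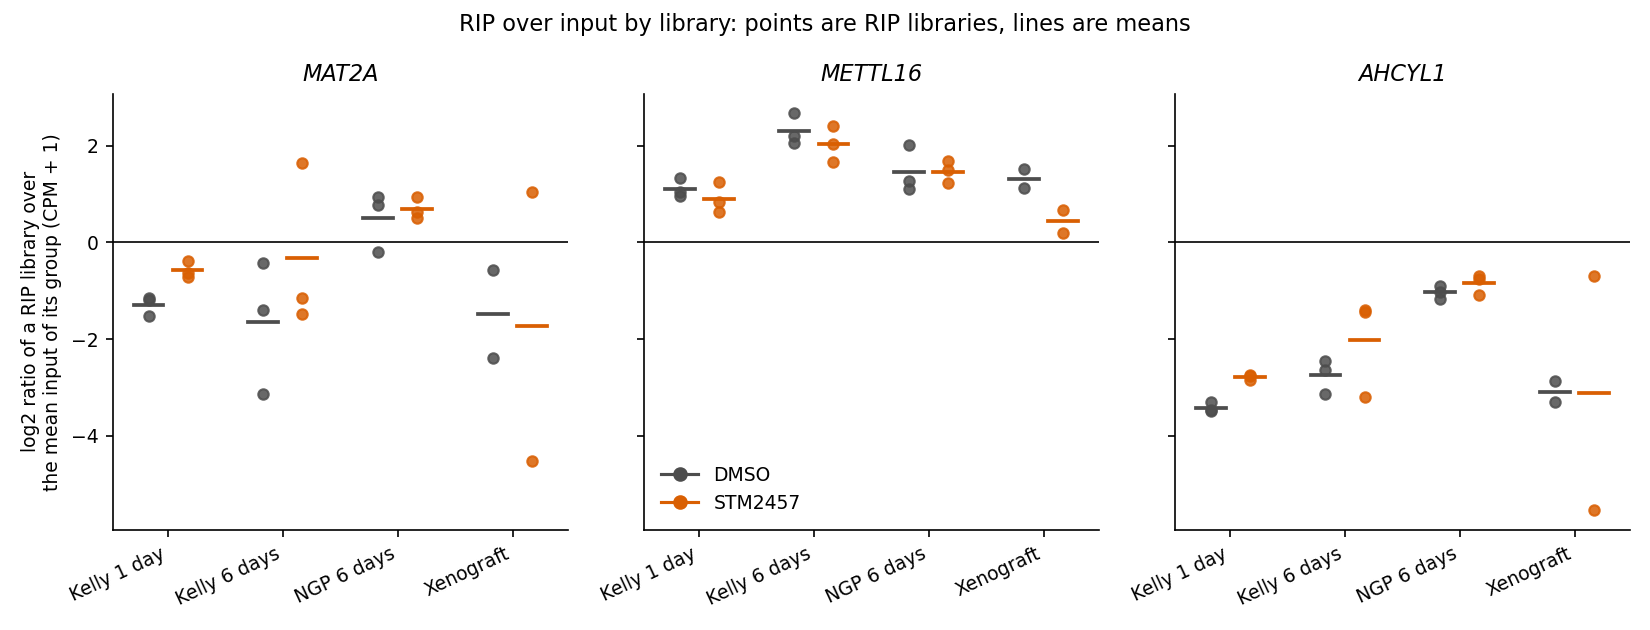
Log2 ratio of each RIP library over the mean input of its group (CPM + 1) for MAT2A, METTL16 and AHCYL1; points are RIP libraries, lines are means, grey is DMSO and orange is STM2457. In Kelly at 1 day the treated libraries of MAT2A (-0.71 to -0.38) and AHCYL1 (-2.85 to -2.75) lie above the DMSO ones (-1.53 to -1.14 and -3.49 to -3.29), on the CPM scale; the fitted changes turn negative with the mitochondrial reference.

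Neither rise was called in the other experiments, and the difference from Kelly at 1 day was not tested. In Kelly at 6 days 0 of 7 members passed (1 at an unadjusted p under 0.05, and 0 called by DESeq2), where 1.26% of all genes rose and 0.803% fell. MAT2A RIP libraries held 354, 50.3 and 39.6 CPM in STM2457 against 12.6, 44.6 and 88.5 CPM in DMSO. The value of 2.00 ± 1.04 rests on treated replicate 1, and without that library it was 0.37 (adjusted p = 0.805, edgeR). AHCYL1 RIP libraries held 12.7, 46.4 and 45.0 CPM in STM2457 against 20.9, 14.5 and 23.7 CPM in DMSO, with 2 of 3 treated libraries above all controls. Its value was 1.31 ± 0.559 (adjusted p = 0.264) and, without treated replicate 1, 1.73 (adjusted p = 0.00284). AHCY RIP libraries held 7.40, 36.6 and 2.33 CPM in STM2457, and without treated replicate 2 the value of -0.63 ± 0.92 became -2.30 (adjusted p = 0.0266). With the mitochondrial reference MAT2A turned to -0.83 and AHCYL1 to -0.92, with the median of all genes at -1.93.

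In NGP 0 members passed by edgeR or DESeq2 and 0 had an unadjusted p under 0.05, where 0% of all genes passed in either direction. MAT2A differed by 0.21 ± 0.330 and AHCYL1 by 0.27 ± 0.240. In the xenograft 0 members passed by edgeR or DESeq2 and 1 had an unadjusted p under 0.05, where 0% of all genes passed. The treated RIP libraries were far apart there: MAT2A held 1.07 and 96.3 CPM, from 5 and 1140 fragments, and AHCYL1 0.855 and 52.1 CPM, from 4 and 617.

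The 2 cell lines differed in both level and RIP ratio. In DMSO inputs 5 of 7 members were higher in NGP than in Kelly at 6 days, where 29.1% of all genes were higher and 31.7% lower. MTAP held 32.4, 19.9 and 29.5 CPM in NGP against 12.3, 10.5 and 7.45 CPM, higher by 1.25 ± 0.233 (adjusted p = 0.000954, edgeR). MTR was higher by 1.10 ± 0.208, MAT2B by 1.08 ± 0.165, AHCY by 0.80 ± 0.102 and MAT2A by 0.72 ± 0.101. METTL16 (0.26 ± 0.146) and AHCYL1 (-0.061 ± 0.076) did not pass, and METTL16 did without NGP DMSO replicate 2 (0.39, adjusted p = 0.0108). Line and library set cannot be told apart here.

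The RIP ratio in DMSO was then compared between the lines as an interaction of experiment and library type, a comparison added after the data were seen. It was higher in NGP for 5 members and lower for METTL16, where 23.9% of all genes were higher and 22.2% lower. These are differences under TMM. With the mitochondrial reference the ratios themselves were lower in NGP than in Kelly at 6 days for MAT2A (1.16 and 4.09), AHCY (-1.11 and 1.45), AHCYL1 (-0.39 and 2.27) and MTAP (1.93 and 4.71), and that difference was not tested. Relative to the median of all genes under that reference, MAT2A stood at 0.30 in NGP and -0.67 in Kelly, AHCY at -1.97 and -3.32, AHCYL1 at -1.24 and -2.50, and MTAP at 1.08 and -0.062. The differences under TMM were 3.55 ± 0.752 for MAT2B, 1.51 ± 0.270 for AHCYL1, 1.27 ± 0.364 for MTAP, 1.21 ± 0.287 for AHCY and -1.08 ± 0.333 for METTL16. MAT2A, at 1.66 ± 0.646 (adjusted p = 0.047, edgeR), lost its call in DESeq2 (adjusted p = 0.0965), with RLE factors (adjusted p = 0.0562) and in 9 of the fits that left out 1 library. Beside these differences, the ratio and the GC content of the transcript had a Spearman correlation of -0.496 over genes in NGP and 0.102 in Kelly at 6 days. The part of GC content in the members' differences was not tested.

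Other genes of SAM metabolism, from 5 lists, were read in the same fits. Of 6 tested genes of the methionine cycle and transsulfuration, 2 fell and 0 rose at 1 day in Kelly cells, and 3 fell and 0 rose at 6 days. Over all genes 8.06% fell and 9.41% rose at 1 day, and 14.7% fell and 11.9% rose at 6 days, and the counts of the lists below are to be read against these shares. CBS, which draws homocysteine into cysteine synthesis, fell from 55.0 ± 1.96 to 44.1 ± 3.61 CPM at 1 day (-0.34 ± 0.075, adjusted p = 0.0041, edgeR) and from 283 ± 3.76 to 242 ± 8.52 CPM at 6 days (-0.33 ± 0.060). ADK, which removes adenosine released by AHCY, fell by 0.22 ± 0.072 and 0.28 ± 0.094 on the log2 scale. CTH, the enzyme after CBS, was the other gene that fell at 6 days, from 3.81 ± 1.2 to 2.01 ± 0.54 CPM (-0.93 ± 0.309, adjusted p = 0.0349).

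Of 8 tested genes of polyamine synthesis and turnover, 4 fell at 1 day and 3 at 6 days, and 0 rose. OAZ1, the antizyme that inhibits ornithine decarboxylase, fell from 593 ± 4.72 to 413 ± 30.5 CPM at 6 days (-0.63 ± 0.063, adjusted p = 2.41e-06, edgeR), and ODC1, ornithine decarboxylase itself, from 217 ± 6.00 to 202 ± 2.23 CPM (-0.22 ± 0.058). Both falls are smaller on plain CPM than in the fit. Of 5 tested genes of methionine salvage, 0 passed at 1 day, and at 6 days GOT1 fell (-0.65 ± 0.109) and MRI1 rose (0.27 ± 0.092). Of 4 tested small-molecule methyltransferases, GAMT, which makes creatine, fell at 1 day (-0.33 ± 0.072), and GAMT (-0.43 ± 0.084) and PEMT (-0.26 ± 0.077) fell at 6 days. The median of all genes was 0.0074 and -0.0045 at these times. For NGP and the xenograft, 0 genes of these lists passed in the inputs.

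Of 4 factors that act on MAT2A RNA, YTHDC1, a nuclear reader of m6A linked to splicing and decay of MAT2A, rose from 88.6 ± 4.77 to 105 ± 2.37 CPM at 1 day (0.22 ± 0.056, adjusted p = 0.0102, edgeR) and from 104 ± 4.94 to 133 ± 7.30 CPM at 6 days (0.25 ± 0.068). CPSF6, a subunit of the cleavage factor that works with METTL16 on MAT2A, fell at 6 days (-0.23 ± 0.065). Of the list genes named for an input change, OAZ1 passed under every alternative and each of the others lost its call in the 1 fit of all inputs. The calls of ADK, CTH, MRI1, PEMT, CPSF6, YTHDC1 and ODC1 were also lost in fits that left out 1 library. In RIP over input under TMM, depletion was common in Kelly at 1 day, where 34.3% of all genes were depleted. It held for 5 of 6 methionine cycle genes, 5 of 5 tested salvage genes, 7 of 8 polyamine genes and 4 of 4 small-molecule methyltransferases. Of the factors that act on MAT2A RNA, 2 were depleted and 2 enriched. In NGP, where 26.5% of all genes were depleted, the counts in this order of lists were 1 of 6, 3 of 5, 3 of 8, 2 of 5 and 1 of 4. In the xenograft SRM alone passed. ODC1 had the lowest ratio named for Kelly at 1 day, -5.04 ± 0.092. Its ratio rose there with STM2457 by 1.40 ± 0.112 (adjusted p = 7.08e-06, edgeR), a value that turned to -0.042 with the mitochondrial reference.

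The genes whose input pattern was most like that of MAT2A were found by Pearson correlation of log2(CPM + 1) over the 22 inputs, after the mean of each experiment was subtracted, among 9340 genes with a mean of at least 10 CPM. They were GLDC (0.945), MED14 (0.934), PNMA2 (0.925), GFM1 (0.922) and TDRKH (0.920). The MAT2A input furthest from its experiment's mean was xenograft STM2457 replicate 1. It held 28.2 CPM from 90 fragments, against 64.3 to 78.5 CPM in the other xenograft inputs. This shallow library therefore weighs most on the Pearson values, and its part in them was not tested. The libraries share depth and treatment, so these are descriptions with no test. Spearman correlation kept 3 of the 5 genes, and that of MED14 was 0.601. Among the members MTR had a correlation of 0.437 with MAT2A and METTL16 of -0.440, and METTL16 ranked 8378 of the 9339 genes compared with MAT2A.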

How the data were processed

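The deposited files hold raw counts of read pairs per gene, 1 table per library. Per the submitters' processing notes, Trimmomatic 0.36, FastQC 0.11.5, HISAT2 2.1.0, Subread 1.5.3 and deepTools 2.0 were used. Per the file headers, featureCounts counted pairs over the exons of protein-coding GENCODE 33 genes, with no option set for strand, for features that overlap or for multi-mapping reads. The FPKM values given here were computed from the deposited counts, the exon length and the library total.

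Genes passing filterByExpr (minimum count 10, minimum total 15) were tested with edgeR 4.0.16 (limma 3.58.1, R 4.3.3) by the quasi-likelihood test with TMM factors, and p-values were adjusted over all genes tested by the Benjamini-Hochberg method at a threshold of 0.05. Input changes were fitted on the inputs of an experiment, and RIP ratios and their change with treatment on its input and RIP libraries, as an interaction of treatment and library type. The comparison of DMSO ratios between lines was added after the data were seen. Errors of log2 values are standard errors, and all tests are two-sided. Per-library ratios used a pseudocount of 1 CPM. Limits from a count of 0 cover counting error only.

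As alternatives, the fits were repeated with DESeq2 1.42.0, RLE size factors, no filter, scaling on 13 mitochondrial mRNAs, a replicate block, 1 fit of all inputs and leaving out each library. The scripts were tested on simulated data. Tables and figures were made with Python 3.11.15, pandas 2.3.3, scipy 1.17.1 and matplotlib 3.10.9.

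Totals per library ran from 2.14 M to 36.5 M (1000000 fragments), and 197 of 204 member exons in the count tables (96.6%) are identical in GENCODE 44, the source of the transcript sequences. The members and the gene lists were chosen with earlier results of these data known. Named beyond the members are list genes past the threshold and the 5 genes most like MAT2A. Spike-in RNAs and some genes of these pathways are not analysed here.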

Additional observations from a re-analysis of the deposited data

Results flagged for a closer look

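The DMSO ratio of RIP over input differed between NGP and Kelly at 6 days, by the test of the difference itself, for 6 of 7 members under TMM, where 23.9% of all genes were higher in NGP and 22.2% lower. The log2 values, NGP minus Kelly, were 1.66 for MAT2A, 3.55 for MAT2B, -1.08 for METTL16, 1.21 for AHCY, 1.51 for AHCYL1 and 1.27 for MTAP. The call of MAT2A was lost in DESeq2, with RLE factors and in 9 of the fits that left out 1 library, and with the mitochondrial reference the ratios of MAT2A, AHCY, AHCYL1 and MTAP were lower in NGP than in Kelly, a difference that was not tested.

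MTR input values lay on opposite sides of the controls in different experiments. Every treated library lay above every control in Kelly at 1 day (0.028) and in Kelly at 6 days (0.40), and below them in the xenograft (-1.14). The value at 1 day was smaller than its standard error of 0.052 (adjusted p = 0.766, edgeR). MTR passed the test in Kelly at 6 days and not in the other experiments named, and the difference between them was not tested. The share of all genes whose groups separate in this way is not given here.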

How the results depend on the processing

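Over single members, 1351 alternative values were compared, of which 1206 kept direction and side of the threshold, 71 reversed, 33 gained a call and 41 lost one. This tally and the single-member ranges below leave out the change of the ratio in the xenograft. They also leave out the response of NGP minus that of Kelly. Over 17 values of list genes named in the text, 154 of 199 alternatives kept them, 44 lost the call and 1 reversed (the change of the ODC1 ratio in Kelly at 1 day, -0.042 with the mitochondrial reference). Spearman correlation kept 3 of the 5 genes most like MAT2A. Where a value differed, the cause was not tested. A group left with 1 library is assumed to vary like the others. The low depth of the xenograft inputs and its 2 libraries per group limit what can be resolved there.

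With the mitochondrial reference the DMSO ratio turned in Kelly at 1 day for MAT2A (0.40), MTR (1.59) and MTAP (1.17), in Kelly at 6 days for MAT2A (4.09), MAT2B (0.33), AHCY (1.45), AHCYL1 (2.27) and MTAP (4.71), in NGP for MAT2B (0.63) and in the xenograft for MAT2A (0.53) and AHCY (1.04). The change of the ratio turned in Kelly at 1 day for MAT2A (-0.62), MAT2B (-0.18), AHCYL1 (-0.71) and MTR (-1.41), with 6 members called, in Kelly at 6 days for MAT2A (-0.83), METTL16 (-2.29), AHCYL1 (-0.92), MTR (-2.63) and MTAP (-1.30), with 2 called, and in NGP for METTL16 (-0.19), AHCY (-0.03) and MTAP (-0.13). In the xenograft it turned for AHCY (-0.11), AHCYL1 (-0.16) and MTAP (-0.23).

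DESeq2 called 1 member in the xenograft inputs, 2 in its DMSO ratio and 1 between the Kelly days. With DESeq2 and with RLE factors, in that order, the change of the ratio in Kelly at 6 days turned for METTL16 (-0.0024 and -0.0027) and MTR (-0.073 and -0.072), and the xenograft DMSO ratio for MTAP (-0.069 and -0.067). One fit of all inputs, which shares its spread between experiments, called 0 members for either Kelly culture and 3 in the xenograft. With no filter, the change of the ratio in Kelly at 1 day was 0.029 for METTL16 and 0.034 for AHCY, and 1 member was called between the Kelly days.

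Same-numbered libraries did not deviate together: over 33 pairs the correlation ran from -0.0851 to 0.128, 1 pair exceeded 0.1, and 12 libraries correlated best with their own number. With a replicate block, MTAP turned in the xenograft inputs (0.023) and MTR in the change of the ratio in Kelly at 6 days (-0.10). MAT2A in the inputs of Kelly at 6 days (adjusted p = 0.064, edgeR), the DMSO ratio of MTAP in Kelly at 1 day (adjusted p = 0.0797), ADK in the inputs of Kelly at 1 day (adjusted p = 0.0749) and MRI1 in those at 6 days (adjusted p = 0.0516) lost their calls with the block. No block was fitted between experiments, whose numbers name different libraries.

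Leaving out 1 library gave these ranges. For inputs, MTAP in Kelly at 1 day ran from -0.024 to 0.13, members called in Kelly at 6 days from 0 to 3, AHCY in NGP from -0.17 to 0.00031 and MTR from -0.028 to 0.28. In xenograft inputs MAT2B ran from -2.23 to 0.70, AHCYL1 from -0.10 to 0.43, MTAP from -0.46 to 0.55 and members called from 0 to 2. For the DMSO ratio, MTR ran from -0.14 to 0.038 in Kelly at 1 day, from -0.02 to 0.72 in Kelly at 6 days and from -0.13 to 0.77 in the xenograft, MTAP from -0.40 to 0.66 and members called from 0 to 3 there, and MAT2B in NGP from -0.25 to 0.20. For the change of the ratio in Kelly at 1 day, METTL16 ran from -0.30 to 0.026, AHCY from -0.17 to 0.045 and MTR from -0.053 to 0.13. In Kelly at 6 days METTL16 ran from -0.083 to 0.24, MTR from -0.50 to 0.46 and members called from 0 to 1. In NGP MAT2A ran from -0.084 to 0.42, METTL16 from -0.10 to 0.34 and MTAP from -0.038 to 0.25. Between the Kelly days AHCYL1 ran from -0.10 to 0.023 and members called from 0 to 1.

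Counts over all genes moved by over 1.5 times in some fits. One fit of all inputs called 26 genes for day-1 Kelly cells, 791 for day-6 Kelly cells, 1266 for NGP cells and 2551 for tumours, against 2315, 3396, 520 and 0. In NGP inputs a replicate block called 870. In xenograft inputs DESeq2 called 120, no filter 100, a block 65, and fits without 1 library 13 to 1933. For the xenograft DMSO ratio DESeq2 called 2199, no filter 1207 and the mitochondrial reference 0, against 474. For the change of the ratio the mitochondrial reference called 8369 genes for day-1 and 3848 for day-6 Kelly cells, against 2345 and 275, DESeq2 called 907 and a block 0 in the latter, and fits without 1 library ran from 0 to 1437 there. In NGP that change gave 2 genes with DESeq2 and in the xenograft 159, against 0 and 0. The split of higher against lower calls for the change in Kelly at 1 day was 1303 to 1042, with RLE factors 1538 to 793 and with the mitochondrial reference 13 to 8356. For the DMSO ratio the mitochondrial reference gave 7623 to 1631 for day-1 Kelly cells, 11065 to 64 for day-6 Kelly cells and 5916 to 1306 in NGP, against 4545 to 4689, 3832 to 3895 and 3800 to 3468.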
